A study of Zea mays with 12 samples.

Results

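A set of 10 classical maize genes that shape branching, ears, tassels and flowering (tb1, tga1, ra1, ra2, ra3, ba1, bif2, id1, ts2 and zfl1) was placed on a replication timing map of root tip nuclei. All 10 were found, 4 by symbol and 6 by synonym, among 47019 annotated genes on the chromosomes, and each took the timing class of the map segment at its midpoint. The table lists tb1 as LOC103643875, ra3 as LOC732774, bif2 as LOC100125650, id1 as LOC541693, ts2 as LOC542246 and zfl1 as LOC542098, and the others by symbol. The map came from B73 seedlings aged 3 days and kept at 28 C, whose dividing root cells took up the thymidine analogue EdU (25 µM) during 20 min before a chase in 100 µM thymidine. Nuclei of the last 1 mm of the root were sorted into 4 groups of 3 biological replicates, or 12 libraries: early S, mid S and late S nuclei, whose EdU-carrying DNA was pulled down with an antibody, and G1 nuclei, sequenced with no pull-down as the reference. All 4 groups share the inbred B73, the EdU pulse and the tissue, which is a vegetative root and not the inflorescence in which these genes are best known.

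The file analysed here is 1 segmentation without library columns, so it shows neither values per replicate nor their spread nor read depth, and nothing below carries a test. It cuts the 10 chromosomes into 20613 segments on a grid of 10 kb. Of these, 20604 carry 1 of 5 classes in the order ES, ESMS, MS, MSLS and LS, read here as early, early-mid, mid, mid-late and late S phase. ES held 27.9% of the sequence in these classes, MS 33.3% and LS 20.5%. Segment positions are those of the file, and the sources used here name no build for it. Genes came from RefSeq's annotation of Zm-B73-REFERENCE-NAM-5.0.

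Replication timing is the order in which parts of a genome are copied within S phase. Gene-rich and open chromatin is generally copied early and repeat-rich, compact chromatin late. The genes described here act when side meristems form, branch or become flowers. The ramosa genes set how far ear and tassel meristems branch, ba1 and bif2 are needed to start side meristems, and tb1 holds back the growth of side buds. tga1 controls the casing of the kernel, id1 the switch to flowering, ts2 the sex of the floret and zfl1 the identity of the floral meristem. tb1 and tga1 are also known as loci that changed during domestication from teosinte.

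The 10 genes were spread over all 5 classes. MS held 4 (tga1, ra2, bif2 and id1), ES held 3 (ra3, ts2 and zfl1), and ESMS (ba1), MSLS (tb1) and LS (ra1) held 1 each. Among the 33141 protein-coding genes with 1 of the 5 classes, ES held 54.8% and MS 24.3%, while ESMS held 11.8%, LS 4.86% and MSLS 4.22%. The members' 3 of 10 in ES was thus below the share of all genes and their 4 of 10 in MS above it, on a count too small to set them apart. The 2 genes in MSLS or LS compare with 9.08% of all genes. Of the members, tb1, bif2, id1 and ts2 all lie on chromosome 1, at 88.3%, 57.7%, 79.5% and 15.1% of its length. Their surroundings differed, with ES shares within 500 kb of 45%, 28.1%, 17% and 58.3%. No member's annotated span crossed a class boundary, but these spans were at most 4534 bp in segments of 70 kb or longer. The share of all genes that cross a boundary was not computed, so nothing particular to the members is read from this.

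**Figure D1:**
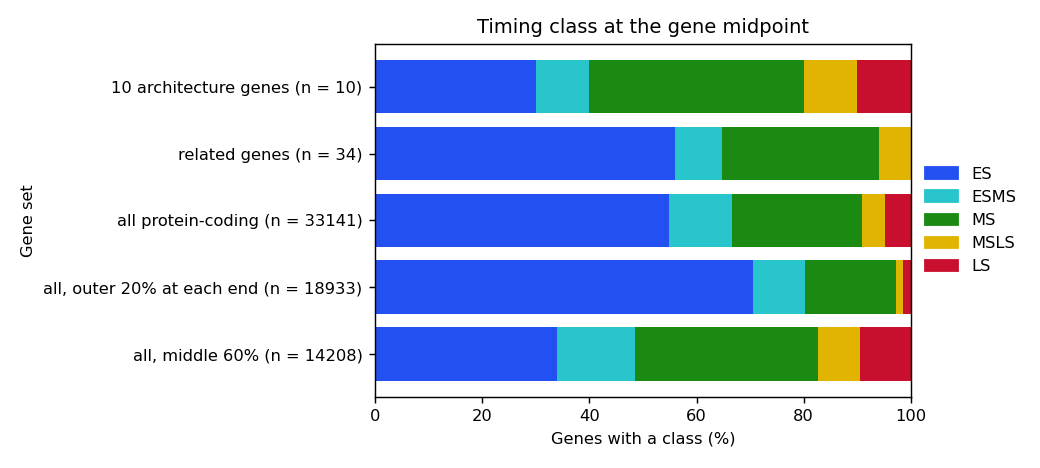
Share of genes (%, x axis) in each timing class for the 10 architecture genes, the 34 related genes with a class, all protein-coding genes, and all protein-coding genes by place on the chromosome. The 10 genes hold 3 in ES and 4 in MS, and ES takes 54.8% of all protein-coding genes, 70.5% near the ends and 33.9% in the middle.

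Classes differ along the chromosome in this map, so members were also read by their place on it. The outer 20% at each end held 6 members (57.1% of all genes): all 3 ES members, the MS genes tga1 and ra2, and tb1 in MSLS. In those outer parts 70.5% of all genes lay in ES. The middle 60% held the other 4, ra1, ba1, bif2 and id1, and none of these was in ES, where 33.9% of all genes of the middle lay. ba1 and id1 lay close to the border between the parts, at 79.1% and 79.5% of their chromosomes.

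**Figure D2:**
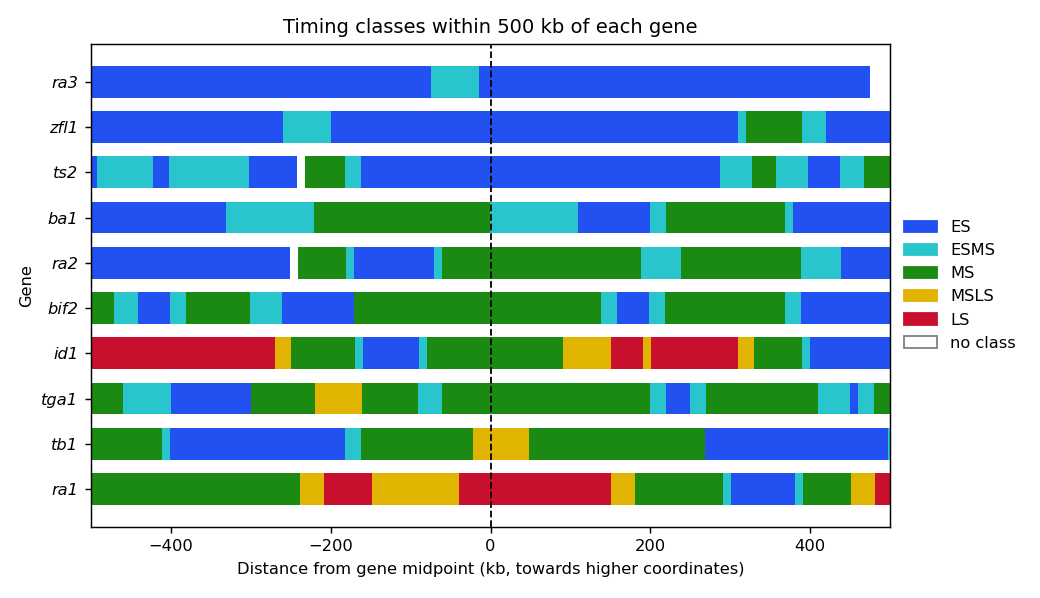
Timing class (colour) of the sequence from 500 kb below to 500 kb above each gene's midpoint (x axis, kb; dashed line at the midpoint), 1 row per gene, with white where no class was given. Rows run from ra3, within ES almost throughout, to ra1, whose own segment is LS; tb1 lies in a short MSLS stretch of 70 kb enclosed by MS, with ES beyond on both sides.

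Among the branching regulators, tb1 encodes a TCP-domain transcription factor that represses the outgrowth of axillary buds. It lay in an MSLS segment of 70 kb on chromosome 1 from 272310001 to 272380000, with 21.7 kb from its midpoint to the lower edge and 48.3 kb to the higher. MS touched the segment on both sides, for 140 kb below and 220 kb above, so tb1 sat in the latest class of its neighbourhood. Within 500 kb on both sides, ES took 45% of the classified sequence, MS 44.8%, MSLS 7%, ESMS 3.17% and LS none. The sides were alike, with ES at 44% below and 46% above.

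For a gene of its class tb1 was in early surroundings. Its ES share was higher than that of 99.2% of the 1398 MSLS genes, whose median was 3%. The nearest LS segment was 10242 kb away, farther than for 98.4% of MSLS genes, whose median distance was 36.2 kb. An absence of LS within 500 kb was found for 13.2% of MSLS genes. The nearest ES segment was 182 kb away. The ES share depended on the width read: within 250 kb it was 13.7% and within 1000 kb 47.9%. The ranks among MSLS genes do not account for place on the chromosome. tb1 lies in the outer 20% at an end, where only 19.4% of MSLS genes lay. Over all protein-coding genes of the outer parts the median ES share was 63%, above the 45% of tb1. Their median distance to LS was 5582 kb.

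The 3 ramosa genes, which act in one pathway that limits branching in the ear and tassel, fell in 3 different classes. ra1 encodes a zinc finger transcription factor and was the LS gene of the group, in a segment of 190 kb on chromosome 7 from 114920001 to 115110000. MSLS touched this segment on both sides, for 110 kb below and 30 kb above. ra1 lay 39 kb from the lower edge and 151 kb from the higher.

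Earlier sequence lay beyond the late sequence around ra1. Within 250 kb LS took 50%, MS 16% and ES none. Within 500 kb LS took 26.9%, MSLS 20.1%, MS 43%, ES 8% and ESMS 2%. Only 14.6% of LS genes had a lower LS share, and the median LS gene had 59.4%. All of the ES lay on the higher side, where it took 16%, and the nearest ES segment was 301 kb from the gene, against a median of 663 kb for LS genes. At 9 protein-coding genes within 500 kb, ra1 had the fewest of the 10, near the median of 8 for LS genes.

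ra2, a transcription factor of the LOB-domain family, lay in an MS segment of 250 kb on chromosome 3 from 12770001 to 13020000, 61.3 kb from its lower edge. ESMS touched it on both sides, for 10 kb below and 50 kb above. The surroundings were lopsided: of the classified sequence, 490 kb below and 500 kb above, ES took 71.2% and 12.3%, and MS 24.8% and 67.7%. Together ES made up 41.4%, higher than for 82.9% of MS genes, and the nearest ES segment was 71.3 kb away.

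ra3, a trehalose-phosphate phosphatase, was in ES, in a segment of 490 kb on chromosome 7 from 175970001 to 176460000. Its midpoint was 14.9 kb from the lower edge, with an ESMS stretch of 60 kb beyond that edge, and 11.6% of ES genes lay nearer to an edge. At the higher edge, 475 kb away, the segment met sequence without a class. With ES joined to ESMS this higher edge was the nearest. ES made up 93.8% of the classified sequence within 500 kb and ESMS the remaining 6.15%. The nearest protein-coding gene below, at a gap of 7.96 kb and also in ES, carries the synonym SRA, the name of the duplicate of ra3 (sister of ramosa3); it was singled out after its value was seen. ra1 and ra3 lie on the same chromosome, at 61.9% and 94.7% of its length.

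Among the 10 members, ra1 and ra3 were each other's least alike in surroundings. Likeness was taken as the summed absolute difference of the 5 class shares within 500 kb, divided by 2, so that 0 points means the same make-up. This pair differed by 90 points, ra2 and ra3 by 52.4 points, and ra2 and tb1 by only 10.6 points. The measure describes 1 segmentation and has no replicate.

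The genes that start side meristems were in ESMS and MS. ba1, a bHLH transcription factor required for axillary meristems, lay in an ESMS segment of 110 kb on chromosome 3 from 188190001 to 188300000, longer than those of 89% of ESMS genes. Its midpoint was 0.681 kb from the lower edge, where MS of 220 kb began, and ES of 90 kb followed the higher edge, 109 kb away. Of all protein-coding genes 1.69% lay within 1 kb of an edge. Since the map has steps of 10 kb, ba1 is best read as lying at the change from MS to ESMS. ES took 38% of the sequence within 500 kb, MS 37% and ESMS 25%.

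bif2, a protein kinase of the PINOID type that acts in auxin transport, was in MS in a segment of 310 kb on chromosome 1 from 177770001 to 178080000. This was the longest MS segment among the members, and longer than that of 80.8% of MS genes. The gene lay deep within it, 139 kb from the nearest edge, farther than 92.8% of MS genes. At the lower edge the class changed directly to ES (90 kb), and at the higher to ESMS (20 kb). MS made up 56.9% of the sequence within 500 kb, ES 28.1% and ESMS 15%, with neither MSLS nor LS.

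**Figure D3:**
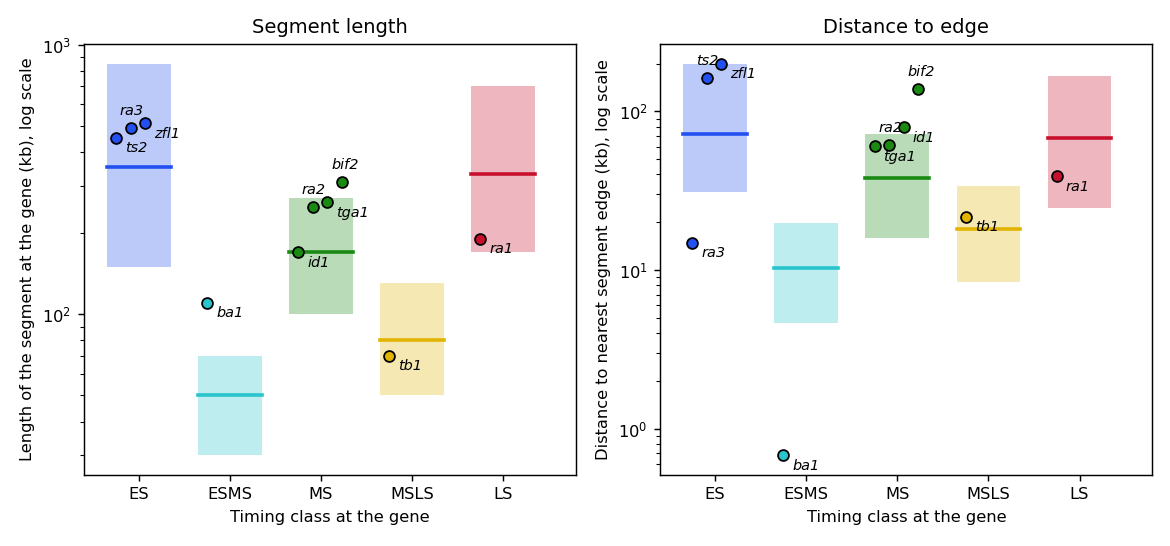
Length of the segment at each gene (left) and distance from the gene's midpoint to the nearest segment edge (right), both in kb on a log axis, by timing class. Points are the 10 genes; boxes span the quartiles and lines mark the medians of all protein-coding genes of the class. ba1 lies in a long ESMS segment of 110 kb but 0.681 kb from its edge, and bif2 lies 139 kb inside MS.

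The kernel casing, flowering and floret genes were in MS or ES. tga1, an SBP-domain transcription factor, was in an MS segment of 260 kb on chromosome 4 from 46590001 to 46850000, 60.4 kb from its lower edge, with ESMS of 30 kb below and 20 kb above. MS made up 61% of the sequence within 500 kb, the highest MS share of the 10 genes. ES took 14%, ESMS 19% and MSLS 6%, the latter all on the lower side. The nearest ES was 220 kb away and the nearest LS 830 kb.

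id1, a zinc finger protein that promotes the change to flowering, lay in MS on a slope in the map. Its segment of 170 kb on chromosome 1 from 245170001 to 245340000 was touched by ESMS of 10 kb below and MSLS of 60 kb above, with the gene near the centre (79.6 kb and 90.4 kb from the edges). LS took 38% of the sequence within 500 kb, a share higher than that of 90.7% of MS genes. It depended on the width, at 17.9% within 250 kb and 23.5% within 1000 kb. LS lay on both sides, at 46.1% below and 30% above. An ES segment was 89.6 kb away and an LS segment 150 kb away, so early and late sequence both lay within a short distance. Around 44.8% of MS genes there was some LS within 500 kb, and id1 was the only 1 of the 4 MS members with any.

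ts2, a short-chain alcohol dehydrogenase that aborts the pistil in tassel florets, was in ES in a segment of 450 kb on chromosome 1 from 46350001 to 46800000. It lay 162 kb from the lower edge and 288 kb from the higher. Beyond its own segment the sequence was mixed: ES was 58.3% within 500 kb, ESMS 30.3% and MS 11.4%, and with the own segment left out ES was 23.6%. Of ES genes 42.2% had a lower ES share.

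zfl1, a maize counterpart of the floral meristem gene LEAFY of Arabidopsis, was in ES in a segment of 510 kb on chromosome 10 from 142820001 to 143330000. This was the longest segment among the 10 members as deposited; with ES joined to ESMS it came to 890 kb, and that of ra3 to 2750 kb. The gene lay deep within it, 200 kb from the nearest edge. ES made up 83% of the sequence within 500 kb, ESMS 10% and MS 7%, and with the own segment left out ES was still 65.3%. zfl1 and ra3 had the closest surroundings of the 3 ES members, at 10.8 points, and zfl1 and ts2 differed by 24.7 points.

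The classes that touch a member's segment place it in the local order of the map. For tga1, ra2 and bif2 the MS segment was later than both touching neighbours, so 3 of the 4 MS genes lay in local troughs of the map, against 41% of all MS genes. With tb1 and ra1, whose segments were also later than both neighbours, this made 5 of 10 members, against 16.2% of all protein-coding genes; the share depends on class, being 0 in ES by definition, 7.99% for ESMS, 41% for MS, 23.5% for MSLS and 88.8% for LS genes. ts2 and zfl1 lay in segments earlier than both neighbours, id1 and ba1 between an earlier and a later neighbour, and ra3 beside sequence without a class.

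ES was present within 500 kb of all 10 genes. This holds for most genes, since the upper quartile of the distance to ES was 127 kb over all protein-coding genes. LS was present within 500 kb of 2 members, ra1 and id1. No LS was found within 500 kb of 71.7% of all protein-coding genes. The median ES share was 39.7% over the members and 41% over all genes, with 5 members below the median of all. Nearer to the genes the medians parted: within 250 kb the members' was 19.2% and that of all genes 42.4%. Within 1000 kb they were 49.6% and 39.9%. All these shares count the gene's own segment. With the own segment left out of the 500 kb on each side, the order turned round, at 41.7% for the members and 27.2% for all genes. By construction this step takes ES only from genes in ES, which were 54.8% of all genes and 3 of the 10 members. The turn is therefore not read as earlier surroundings of the members. The medians within 250 kb also depend on how many genes lie in ES, since the own segment is counted there. By member, the ES share within 250 kb lay between 85.7% and 90% around the ES members ts2, ra3 and zfl1. Around the other 7 it lay between 0 (ra1) and 23.7% (bif2). This split largely repeats the class at the midpoint, since the own segment is counted.

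**Figure D4:**
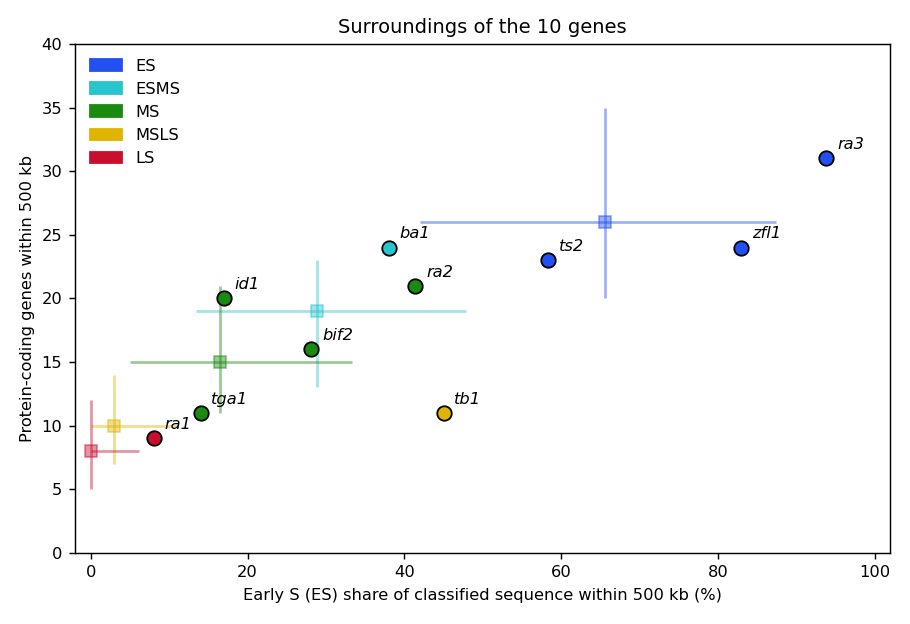
ES share of the classified sequence within 500 kb (%, x axis) against the number of protein-coding genes within 500 kb (y axis). Circles are the 10 genes coloured by class; squares with bars are the medians and quartiles of all protein-coding genes of each class. tb1, at 45% ES and 11 genes, lies far to the right of the MSLS genes, and ra3 is highest on both axes at 93.8% and 31 genes.

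Gene content around the members followed a similar order. Protein-coding genes within 500 kb, the member included, numbered 9 at ra1, 11 at tb1 and tga1, 16 at bif2, 20 at id1, 21 at ra2, 23 at ts2, 24 at ba1 and zfl1 and 31 at ra3. The median was 20.5 over the members and 21 over all genes. The 3 ES members thus had 23 or more, at or below the ES median of 26 except for ra3. tb1 had many ES bases and few genes: its ES share exceeded that of 53.3% of all genes and its gene count that of 13.9%.

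Most members stood well apart from their neighbouring genes. The sequence between a gene and its nearest protein-coding neighbours, both sides together, came to 324 kb for tb1 (160 kb below and 164 kb above), 324 kb for bif2 (175 kb and 149 kb), 282 kb for tga1 and 264 kb for ra1. It was 186 kb for ba1, 175 kb for ra2, 164 kb for zfl1, 95.3 kb for ra3, 71.8 kb for id1 and 59.4 kb for ts2. The median was 180 kb over the members and 77.7 kb over all genes, and 8 of 10 members exceeded the median of all. The 25% of all genes with the most such space held 7 of the 10 members.

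This spacing moved with the timing class over all genes. ES genes had a median of 49 kb and ESMS genes of 94.5 kb. MS genes had 123 kb, MSLS genes 209 kb and LS genes 257 kb. Among the 25% of genes with the most space, ES held 23.1%, ESMS 13.4%, MS 38.3%, MSLS 11.1% and LS 14%, and among the 25% with the least, ES held 79.9% and MS 10.1%. Of the 7 members with the most space, 1 was in ES (zfl1), 1 in ESMS (ba1), 3 in MS (tga1, ra2 and bif2), 1 in MSLS (tb1) and 1 in LS (ra1). Against genes of their own class, zfl1 had more space than 91.4%, bif2 than 91%, tga1 than 87.4%, ba1 than 81%, ra3 than 75% and tb1 than 73.8%, while ra1 was near the middle of LS genes (51.5%) and id1 below the middle of MS genes (27%). Its part in the classes of the members was not tested. The spacing was examined after the other results were known.

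**Figure D5:**
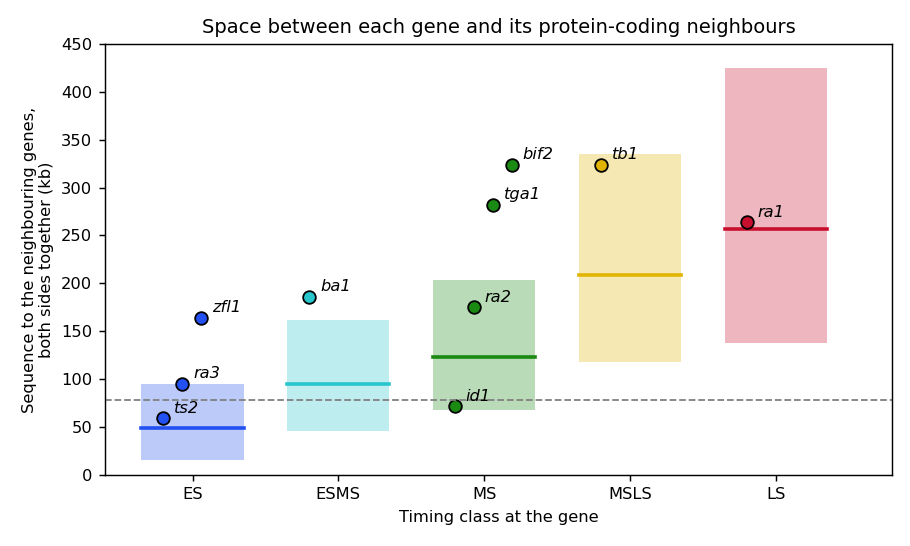
Sequence between each gene and its nearest protein-coding neighbours, both sides together (kb, y axis), by timing class (x axis). Points are the 10 genes, boxes and lines the quartiles and medians of all protein-coding genes of the class, and the dashed line the median of all genes, 77.7 kb. 8 of the 10 genes lie above the dashed line; id1 (71.8 kb) and ts2 (59.4 kb) lie below it.

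Other genes of inflorescence, branching and flowering were placed in the same way. Of 54 names looked for, 35 were matched and 34 had a class. ES held 19 of these (55.9%, beside 54.8% of all protein-coding genes), MS 10, ESMS 3, MSLS 2 and LS none. The spikelet meristem regulator sid1 had no class. Their median space to neighbouring genes was 103 kb over 33 protein-coding genes, of which 12 were among the 25% with the most. The median ES share within 500 kb was 46.5%.

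By role, all 5 classified genes of the spikelet meristem group lay in ES, which held 54.8% of all protein-coding genes. Among them were ub2, an SBP-domain factor like tga1, and ids1, an AP2-domain factor. A noncoding gene of this group lay 0.032 kb from a segment edge and another gene of it 3.5 kb, less than the 10 kb step of the map. Of the 5 flower identity genes, 1 was in ES, 3 in MS, among them the MADS-box genes zap1 and zag2, and zag1, an AGAMOUS-like MADS-box gene, was in MSLS. The meristem size group had 3 of 6 in ES, the first being ct2, a G-protein alpha subunit, with kn1 in ESMS and the receptor gene fea3 in MS. The sex determination and hormone group had 2 of 4 in ES, with an1, a gibberellin synthesis gene, in MS. Over all protein-coding genes MS held 24.3%, ESMS 11.8% and MSLS 4.22%. The role groups are too small for a comparison between them.

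Known partners of members were read beside them, with no pattern drawn from their classes, since ES alone holds 54.8% of all protein-coding genes. gt1, a homeobox gene that acts with tb1 on tillers, was in ES in a segment of 860 kb, with tb1 in MSLS; a second gene carries that name in capitals, was left out, and was also in ES. rel2, a co-repressor that binds ra1, was in ESMS, in a segment of 30 kb, a class earlier than those of ra1 and ra2. It lay 2.77 kb from the edge of that segment, with ES beyond. This is less than the 10 kb step of the map, so its order against ra3 in ES is not resolved. bif4 and bif1, auxin response repressors that share the barren inflorescence phenotype with bif2, were in ES and ESMS. ts1, a lipoxygenase of the same sex determination pathway as ts2, was in ES like it, but in a segment of 40 kb with 6% ES within 500 kb, where ts2 had 58.3%. dlf1, a bZIP factor, and zcn8, a florigen gene, both later in the flowering pathway than id1, were in ES with segments of 370 kb and 70 kb.

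The MSLS genes of the related list were bad1 and zag1. bad1 acts on tassel branch angle and encodes a TCP-domain factor, as tb1 does. The pair was singled out after both were seen in MSLS, which holds 4.22% of all genes. bad1 lay in a segment of 120 kb on chromosome 2 that was later than both its neighbours, like tb1's, with 11 protein-coding genes within 500 kb, the same number as around tb1. The ES share around it was 11.8% and the MS share 52.2%. The nearest LS was 692 kb away, nearer than the 10242 kb of tb1. zag1 lay in a segment of 120 kb with 46% ES within 500 kb and its nearest LS at 15796 kb, where tb1 had 45% and 10242 kb.

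Over members and related genes together, the closest match in surroundings differed by 20 points or less for each member. zfl1 was nearest to lg2 (5 points), bif2 to fea4 (6), ra3 to bd1 and lg1 (6.15 each), ra2 to ub2 (7.01) and tga1 to mads69 (8). tb1 was nearest to ub2 (8.67), ba1 to td1 (9), ts2 to bif1 (9.64), ra1 to zag2 (10.2) and id1 to conz1 (20). Several of these pairs differ in their own class: tb1 is in MSLS and ub2 in ES, ra1 is in LS and zag2 in MS. The members most alike in surroundings were tb1 with ra2 (10.6 points) and ra3 with zfl1 (10.8 points).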

How the data were processed

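Repli-seq libraries of B73 root tip nuclei were processed by the authors. Tools named by the submitters' processing notes are SAMtools 1.9, Bowtie2 2.5.1 and Trimmomatic 0.39. How segments were called, on which build, at what depth and from which replicates is not stated in those notes or the file. The deposited file gives, per the file headers, a timing class for each segment in windows of 10000 bp, with no signal or count.

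Each gene of the RefSeq table (Zm-B73-REFERENCE-NAM-5.0, without strand) took the class at its midpoint. Gene counts and ES correlated best at offsets of 0 to 10 kb on all 10 chromosomes, out of offsets up to 200 kb. The correlations there were low, at 0.193 to 0.257. No gene coordinate or sequence is printed. Shares were taken over classified sequence within 500 kb, and percentages of genes over protein-coding genes with a class.

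The members and gene lists were chosen with earlier results of these data known, so nothing was tested. Named were all members and, of the related genes, those in MSLS or LS, the first 4 by position in each other class, partners of members and closest matches. 19 names had no match in the table. Simulated data were used to check the reading of the class at a position, the class shares around it and the class covering most bases. They also served to check that absorbing short segments kept the covered bases. The other measures were not checked in this way. Python 3.11.15, numpy 2.4.6, pandas 2.3.3 and matplotlib 3.10.9 were used.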

Additional observations from a re-analysis of the deposited data

How the results depend on the processing

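Only the readings that moved the genes by 20 kb could change a member's class, since no member crossed a boundary and the shortest segment was 70 kb. The other 40 outcomes (class at either end of the gene, class covering most of it, segments under 30 kb given to the longer neighbour) were fixed by this. Of the 20 moved positions 18 kept the class, and the exceptions came 20 kb lower, where ra3 became ESMS and ba1 MS. With symbols alone the 4 genes left had 0 in ES, 2 in MS and 0 in MSLS, and the 7 related genes left had 5 in ES, 0 in ESMS, 2 in MS and 0 in MSLS, by construction from fewer genes. The members' median distance to the nearest edge rose from 60.8 kb to 109 kb with ES joined to ESMS and MSLS to LS, and their median ES share fell to 19.2% within 250 kb. Joining also took the segment of ra1 from 190 kb to 420 kb, of ba1 from 110 kb to 220 kb, of ra3 from 490 kb to 2750 kb and of zfl1 from 510 kb to 890 kb, by construction, and the nearest edge of ra3 from 14.9 kb to 475 kb. Of the 30 ES, MS and LS shares around single members, 11 moved by over 1.5 times within 250 kb, 2 within 1000 kb and 7 with the own segment left out. The cause was not tested. The other summary values stayed within 1.5 times, among them the related genes without cg1, a noncoding gene, which was chosen after seeing the data. No paired analysis was possible because the file has no columns per sample. Depth is unknown, the resolution is 10 kb, and 1 map shows no spread between replicates.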
